A study of Ipomoea batatas with 12 samples.

Results

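In sweet potato leaves, 226 of 32301 gene identifiers stood higher after both of 2 signalling peptides than after water. They were chosen from raw counts, scaled to each library's total as CPM and set on the scale log2(CPM + 0.5). A member had a mean water level of at least 0.5 CPM, a mean at least 0.58 log2 units above water with each peptide, and a level in every peptide library above water replicates 1, 2 and 4. Water replicate 3 counted in the water mean but not in the last condition. These same values chose the members, so the differences from water below are a description and carry no test.

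Messenger RNA was sequenced from the third leaf of Tainong 57 plants grown from scions, 1 h after water (the control), IbHypSysIV or IbPep1, with 4 libraries in each group. The plants carried no transgene named in the labels, and neither the peptide dose nor the way of application is given there. The 4 IbPep1 libraries are so called by their source name, while their treatment field counts up from IbPep1 to IbPep4; the source name set the group. The labels do not say whether replicates came from separate plants, so any p-value reflects the spread among these libraries, part of which may be technical.

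Hydroxyproline-rich systemins, the family named in IbHypSysIV, are small secreted glycopeptides cut from larger precursors, and in tobacco and tomato they induce defence proteins such as protease inhibitors. Plant elicitor peptides, the family named in IbPep1, are released from precursors in damaged cells. In Arabidopsis they are bound by receptor kinases at the cell surface, which set off calcium influx, an oxidative burst and the transcription of defence genes. Setting both peptides against water asks which leaf genes stand higher with each of these signals. The deposited table gives identifiers without gene names, and 0 of them matched the reference table of 175826 sweet potato genes, so no function or sequence is given for any member and no list of genes by function could be applied.

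Library totals ranged from 16607188 to 25073251 counts, and 3 counts, taken as the floor, are worth 0.120 to 0.181 CPM. The floor allows for counting error only, since PCR copies of a read are not separate molecules. In each group 1 library was most often the highest, and these 3 are called below the libraries that stand apart. Water replicate 3 lay above the other 3 water libraries in 79.2% of the members, against 44.5% of the 23193 genes tested. The share among members follows partly from the rule, which held the other 3 water libraries below every peptide library and left this one free. IbHypSysIV replicate 4 was the highest of its group in 61.5% of the members (36.4% of genes tested), and IbPep1 replicate 3 in 54.4% (47.3% of genes tested). IbHypSysIV replicate 2 departed the other way and is not among the 3. It was the lowest of its group in 50% of the members (39.8% of genes tested). The number of members, their median differences and the counts of calls are also given without the 3 libraries that stand apart.

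Summed over the members, the 4 water libraries held 0.514%, 0.445%, 1.20% and 0.471% of their counts in these genes, in the order of replicates 1 to 4. The IbHypSysIV libraries held 0.948%, 0.975%, 1.09% and 1.41%. The IbPep1 libraries held 1.05%, 1.21%, 1.59% and 1.05%. That every peptide library lay above water replicates 1, 2 and 4 was fixed by the rule, which required it of each member. The rule left water replicate 3 free, and this library lay inside the range of both peptide groups. The group means were 0.657% ± 0.363 in water, 1.10% ± 0.210 with IbHypSysIV and 1.23% ± 0.254 with IbPep1 (SD, n = 4), and the water mean without replicate 3 was 0.477% ± 0.0351 (SD, n = 3). In whole-leaf samples, fewer cells of a type and less RNA per cell cannot be told apart. From 31.8% to 53.3% of the members' counts in a library came from the 3 members with the most counts. Without those 3, water replicates 1, 2 and 4 held 0.281% to 0.351%, water replicate 3 0.560% and the peptide libraries 0.533% to 1.03%, so that water replicate 3 still lay above the lowest peptide library.

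**Figure D1:**
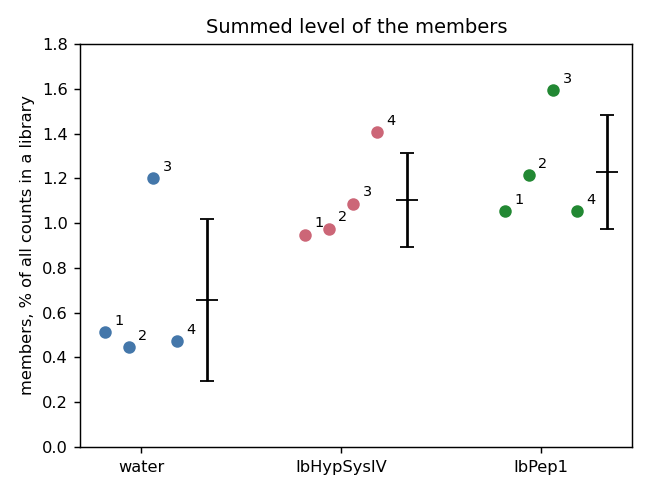
Share of each library's counts that fell on the 226 members, in percent, by group. Points are libraries labelled with their replicate number, and the bar beside each group is the mean with its SD (n = 4); water replicate 3, at 1.20%, is the only water library inside the range of the peptide libraries.

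With IbHypSysIV the members stood a median of 0.81 log2 units above water, with a middle range (lower to upper quartile) of 0.67 to 1.09, and the highest reached 3.30. With IbPep1 the median was 0.98, the middle range 0.74 to 1.28 and the highest 3.52. The medians over all genes tested were -0.01 and 0.02. A difference of at least 1 log2 unit was found with both peptides in 49 members, with IbPep1 alone in 55, with IbHypSysIV alone in 21 and with neither in 101. Of the 226 members, 3 reached 2 log2 units with both. At the threshold of 0.58, the lowest member stood at 0.5803 with IbHypSysIV and the nearest gene outside at 0.576. For IbPep1 these values were 0.5832 and 0.5786. Of 449 genes that met the conditions on level and mean differences, 223 failed the last condition on single libraries.

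**Figure D2:**
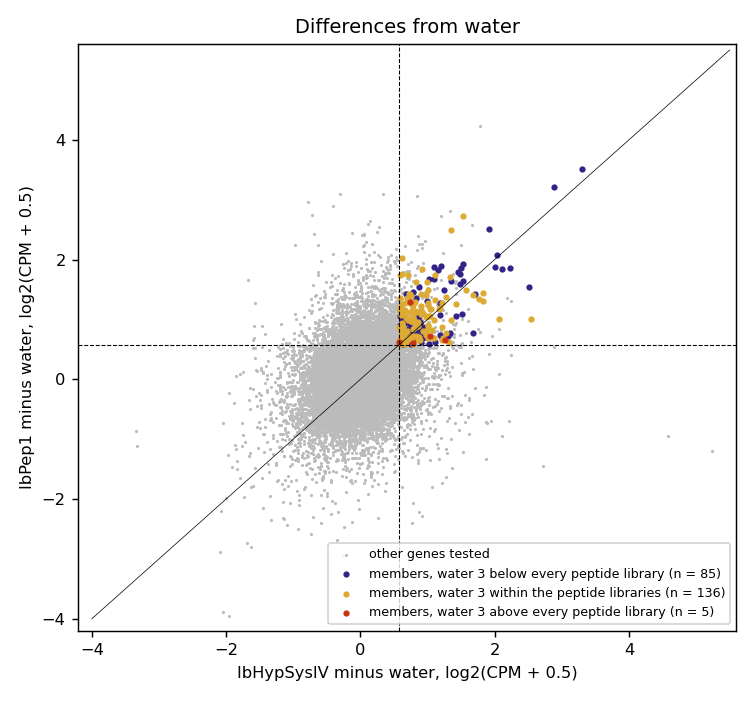
Mean difference from water on the log2(CPM + 0.5) scale, for IbHypSysIV (horizontal axis) and IbPep1 (vertical axis), of each of the 23193 genes tested. Members are coloured by the place of water replicate 3 among the peptide libraries, dashed lines mark the threshold of 0.58, and the solid line marks equal differences; the upper quartile of the members is 1.09 on the horizontal and 1.28 on the vertical axis, and 2 members lie near or above 3 on both.

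All 226 members passed the filter on low counts and were in the fit of all genes. In that fit, by the quasi-likelihood test of edgeR (Benjamini-Hochberg adjusted over all genes), 49 members were called higher with IbHypSysIV than with water, where 1.22% of all genes were. For IbPep1 the count was 133 members, where 5.51% of all genes were called higher. Both calls were made for 43 members, beside 0.263% of all genes. The rule used these contrasts, so nothing is read from the counts. They changed with single libraries. Leaving out water replicate 1, 2, 3 or 4 gave 10, 12, 114 or 12 members for IbHypSysIV, and leaving out IbHypSysIV replicate 3 or 4 gave 9 or 28. For IbPep1, leaving out water replicate 1, 2, 3 or 4 gave 57, 41, 202 or 46, and leaving out IbPep1 replicate 1 or 2 gave 63 or 50.

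The members with the largest differences from water were the same pair of genes for both peptides. The level of itf00g25340 in water was 9.71, 11.4, 5.87 and 11 CPM in replicates 1 to 4. With IbHypSysIV it was 68.0, 59.8, 127 and 160 CPM. With IbPep1 it was 139, 115, 60.6 and 155 CPM. The lowest peptide library, at 59.8 CPM, lay well above the highest water library, at 11.4 CPM, and water replicate 3 was the lowest of all 12 libraries. The mean differences from water were 3.30 log2 units with IbHypSysIV and 3.52 with IbPep1.

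The second gene, itf05g02260, stood at 10.6, 12.3, 5.04 and 13.5 CPM in water. It reached 50.4, 55.1, 107.7 and 108.4 CPM with IbHypSysIV. With IbPep1 it reached 122, 94.7, 50.4 and 135 CPM. The order of libraries was much like that of itf00g25340: water replicate 3 and IbPep1 replicate 3 were the lowest of their groups, and IbHypSysIV replicates 3 and 4 were the highest of theirs. The mean differences from water were 2.89 log2 units with IbHypSysIV and 3.21 with IbPep1. The CPM of itf00g25340 divided by that of itf05g02260 was 0.814 to 1.16 in water, 1.09 to 1.47 with IbHypSysIV and 1.14 to 1.21 with IbPep1. Whether these genes share reads through near-identical sequence is not known without their sequences.

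Neither gene passed the threshold between the peptides. The fitted log2 fold change of IbPep1 over IbHypSysIV was 0.16 for itf00g25340 (95% interval -0.61 to 0.93, adjusted p = 0.779, quasi-likelihood test of edgeR). For itf05g02260 it was 0.30 (95% interval -0.52 to 1.11, adjusted p = 0.608, same edgeR test). The sign for itf00g25340 turned without IbHypSysIV replicate 1 (-0.01), without IbHypSysIV replicate 2 (-0.01) and without IbPep1 replicate 4 (-0.01), and with single libraries left out its value reached 0.41. For itf05g02260 the value ran from 0.11 without IbPep1 replicate 4 to 0.54 without IbPep1 replicate 3. Without the 3 libraries that stand apart the log2 fold changes were 0.67 and 0.71 (adjusted p = 0.0727 and 0.0765, same edgeR test), with IbPep1 higher and neither passing. The second interval does not exclude a difference of 1 log2 unit upward.

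**Figure D3:**
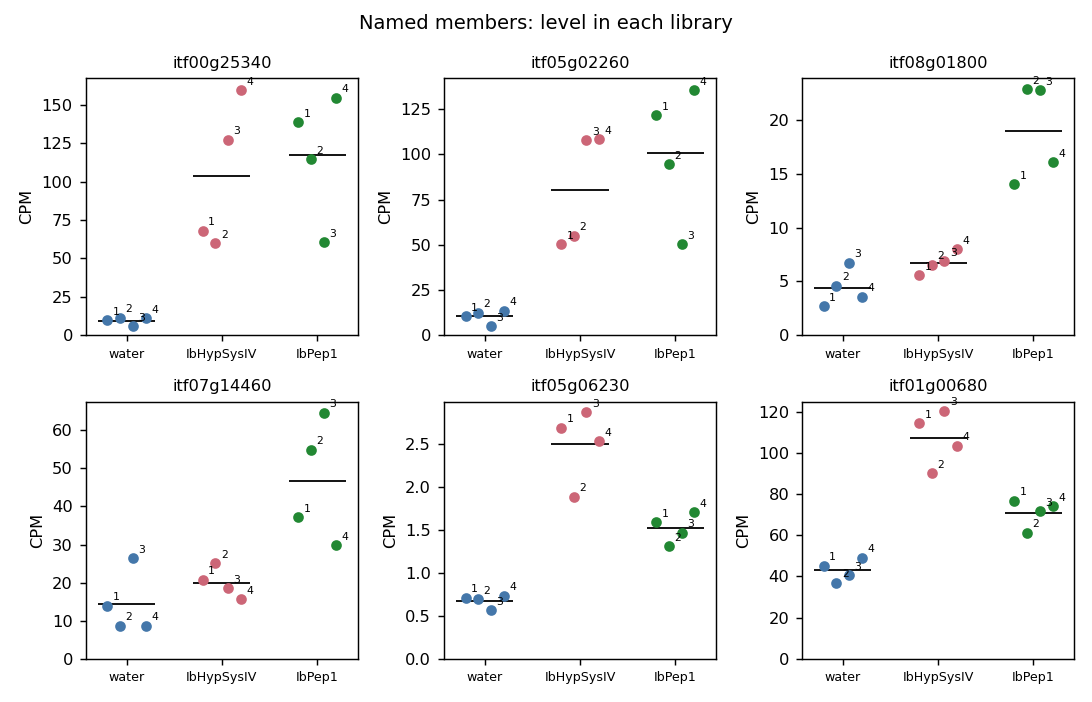
Level in CPM (vertical axes, each starting at 0) of the 6 members named in the text, in each of the 12 libraries. Points are libraries labelled with their replicate number and lines are group means (n = 4); in the first 2 genes all peptide libraries lie above 50 CPM and all water libraries below 14 CPM.

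How far the peptides differed from each other was not part of the rule, though the same 8 peptide libraries were, and the requirement that both exceed water limits how far one can fall below the other. Of the 226 members, 7 differed between IbPep1 and IbHypSysIV (3.10%), by the quasi-likelihood test of edgeR (Benjamini-Hochberg adjusted over all genes). Over all genes tested the share was 15.8%. Higher levels with IbPep1 were called in 3 members (6.7% of all genes) and lower levels in 4 (9.14% of all genes). The median fitted log2 fold change was 0.09 over the members, with a middle range of -0.12 to 0.34, and 0.00236 over all genes. In 124 members the 95% interval stayed between -1 and 1 log2 units, which is 54.9% of them, beside 57.2% of all genes. For the other members a 2-fold difference in 1 direction or the other was not excluded by the interval. The groups of 4 did not overlap in 16 members, 14 of them higher with IbPep1; this is 7.08%, where 22.1% of all genes had no overlap. The median SE of the fitted log2 fold change was 0.30 over the members and 0.23 over all genes, so members were measured less precisely.

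The count of 7 depended on single libraries. Leaving out water replicate 3 gave 13 members, with 21.6% of all genes called. Leaving out IbHypSysIV replicate 3 or 4 gave 3 or 4, with 8.05% or 14.5% of all genes. Leaving out IbPep1 replicate 1 or 2 gave 2 each, with 9.10% or 7.01% of all genes. The share over all genes thus moved in the same direction as the members' count in each of these 5 fits. Without water replicate 3, IbHypSysIV replicate 4 and IbPep1 replicate 3 together, 17 members were called, 4 of the 7 among them, and 23.9% of all genes were. Without IbPep1 replicate 3 alone the count was again 7, but 2 of them were the same genes.

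**Figure D4:**
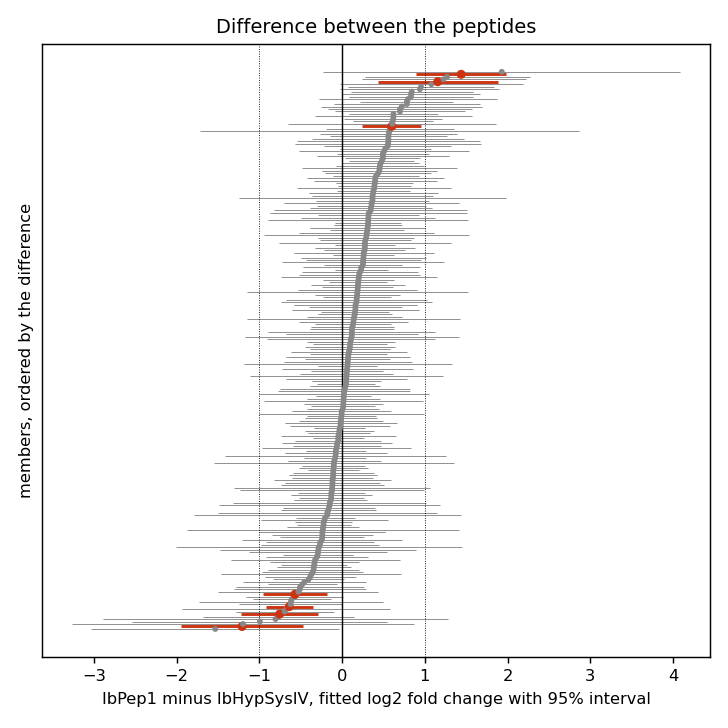
Fitted log2 fold change of IbPep1 over IbHypSysIV (horizontal axis) with its 95% interval for each of the 226 members, in order of size. Red marks the 7 members called by edgeR's quasi-likelihood test at an adjusted p under 0.05, and dotted lines mark 1 log2 unit either way; 137 of the fitted values lie above 0.

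Of the 2 members named as higher with IbPep1, itf08g01800 had the larger difference. It stood at 2.72, 4.59, 6.74 and 3.57 CPM in water. With IbHypSysIV it was at 5.57, 6.58, 6.90 and 8.01 CPM. With IbPep1 it was at 14.1, 22.9, 22.8 and 16.1 CPM, so that the groups of the 2 peptides did not overlap and water replicate 3 lay among the IbHypSysIV libraries. The log2 fold change of IbPep1 over IbHypSysIV was 1.44 (SE 0.25, adjusted p = 0.00464, quasi-likelihood test of edgeR), with adjusted p from 2.74e-06 to 0.0273 over 20 alternatives, in all of which it passed. Its mean differences from water were 0.62 log2 units with IbHypSysIV, close to the threshold, and 2.02 with IbPep1.

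In water itf07g14460 was at 13.9, 8.69, 26.4 and 8.66 CPM. It was at 20.7, 25.1, 18.5 and 15.7 CPM with IbHypSysIV. Its IbPep1 levels were 37.2, 54.9, 64.6 and 29.9 CPM. Water replicate 3 exceeded all IbHypSysIV libraries of this gene. The log2 fold change between the peptides was 1.15 (SE 0.34, adjusted p = 0.0361, same edgeR test), with adjusted p from 0.00753 to 0.107 over 20 alternatives, of which 13 passed. Leaving out IbHypSysIV replicate 1, 3 or 4 (log2 1.14, 1.13 and 1.03) or IbPep1 replicate 1, 2 or 3 (log2 1.24, 1.04 and 1.01) ended the call. So did taking the numbers in the library titles as a replicate block (log2 1.11).

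Of the members lower with IbPep1, itf05g06230 was at 0.711, 0.692, 0.565 and 0.733 CPM in water, which are 13 to 17 counts. It was at 2.69, 1.89, 2.87 and 2.53 CPM with IbHypSysIV. Under IbPep1 it was at 1.59, 1.31, 1.47 and 1.71 CPM. The 3 groups of this gene did not overlap, with water lowest and IbHypSysIV highest. The log2 fold change of IbPep1 over IbHypSysIV was -0.75 (SE 0.21, adjusted p = 0.0327, same edgeR test), with adjusted p from 0.0199 to 0.243 over 20 alternatives, of which 10 passed. The call ended on leaving out IbHypSysIV replicate 1, 3 or 4 (log2 -0.74, -0.66 and -0.77) or IbPep1 replicate 1, 2 or 3 (log2 -0.79, -0.71 and -0.70), without the 3 libraries that stand apart (-0.70), with no filter on low counts (-0.75) and with limma-voom (-0.76). It also ended with the numbers in the library titles taken as a replicate block (-0.68). At such counts the scale matters: IbHypSysIV exceeded water by 1.34 on the log2(CPM + 0.5) scale and by 1.90 in the fit.

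The gene itf01g00680 had the smallest SE of these 4. Its water levels were 45.3, 37.0, 40.5 and 49.1 CPM. With IbHypSysIV they were 114, 90.2, 120 and 103 CPM. With IbPep1 they were 76.7, 61.2, 71.6 and 73.9 CPM. All 3 groups stood apart without overlap, and water replicate 3 lay among the other water libraries. The log2 fold change between the peptides was -0.64 (SE 0.13, adjusted p = 0.00967, same edgeR test), with adjusted p from 0.000157 to 0.125 over 20 alternatives, of which 19 passed. In all 4 members called lower with IbPep1, water replicate 3 lay below every peptide library. This held for 0 of the 3 called higher and for 37.6% of all members, and no test was made.

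By mean differences on the log2(CPM + 0.5) scale, 193 members differed by less than 0.58 between the peptides. Their median differences from water were 0.80 with IbHypSysIV and 0.92 with IbPep1. In 26 members IbPep1 stood at least 0.58 higher, with medians of 0.77 and 1.65. In 7 members IbHypSysIV did, with medians of 1.68 and 0.77. Of the 23193 genes tested, 3123 stood at least 0.58 higher with IbPep1 and 2386 with IbHypSysIV. The rule on both peptides limits how far apart they can lie in a member, so nothing is read from these counts. The direct test called 3, 2 and 2 members in these classes, in the order IbPep1 higher, within 0.58 and IbHypSysIV higher. It called 15.8% of all genes.

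Libraries of 1 group differed over the members as a whole. Relative to the mean of water replicates 1, 2 and 4, the median member stood at 0.98, 0.74, 0.99 and 1.32 log2 units in IbHypSysIV replicates 1 to 4. In IbPep1 replicates 1 to 4 it stood at 1.04, 1.15, 1.44 and 0.90. In water replicate 3 it stood at 0.69, and in water replicates 1, 2 and 4 at 0.17, -0.08 and -0.04. The median gene tested lay between -0.09 and 0.15 in all 12 libraries. IbHypSysIV replicate 2 was the lowest of the 8 peptide libraries in 85 members and had the lowest TMM scaling factor, 0.914, where the factors reached 1.10. Without that library 467 genes met the rule, and without water replicate 3, 396 did.

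The deviations of members from their group means had a first principal component that held 58.2% of their sum of squares, against 37.2% over all genes tested. On it, water replicate 3, IbHypSysIV replicate 4 and IbPep1 replicate 3 had the largest weights in 1 direction (0.53, 0.45 and 0.48), as they did over all genes (0.59, 0.46 and 0.39). All 3 at once were the highest of their groups in 85 members, which is 37.6%, where 15.4% of all genes tested showed this. The median SD of members within a group was 0.45 log2 units in water, 0.37 with IbHypSysIV and 0.36 with IbPep1, beside 0.27, 0.28 and 0.25 over all genes. Without replicate 3 the water value was 0.26, beside 0.17 over all genes. The rule held the other water libraries below every peptide library and left water replicate 3 free. The members' component, their share of 37.6% and their water SD are therefore not independent of how the members were chosen. The part of depth, RNA quality or sampling in these deviations was not tested.

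**Figure D5:**
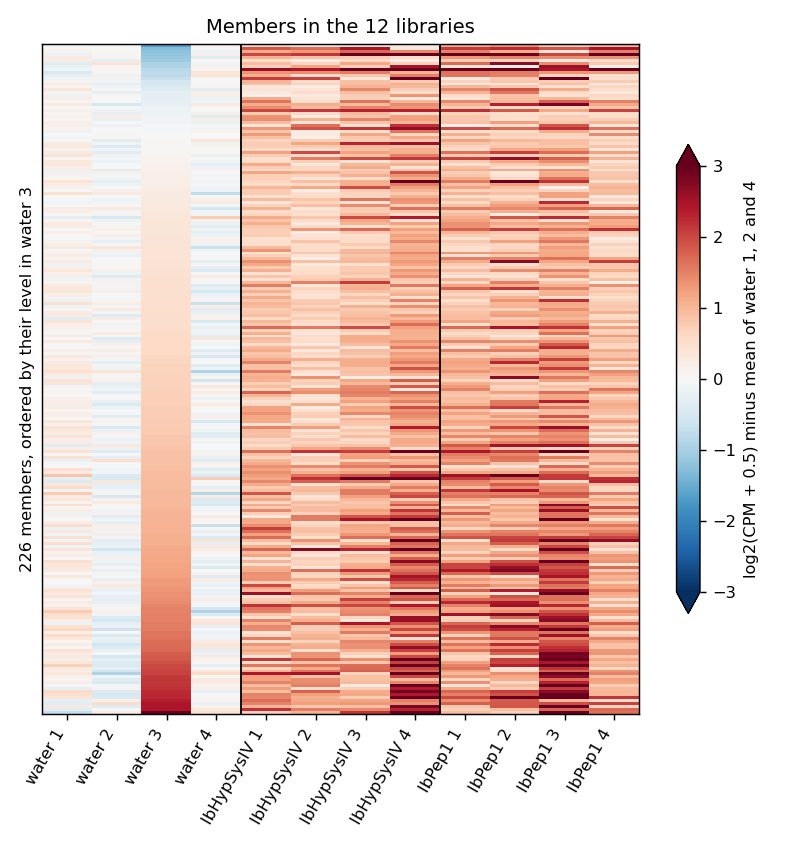
Level of the 226 members in the 12 libraries as log2(CPM + 0.5) minus the mean of water replicates 1, 2 and 4, with colours cut at 3 either way. Rows are members in order of their level in water replicate 3, lowest at the top. Water replicate 3 was the highest water library in 179 members. In 85 of these, IbHypSysIV replicate 4 and IbPep1 replicate 3 were also the highest of their groups.

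The place of water replicate 3 divided the members. It lay below every peptide library in 85 members, within their range in 136 and above all of them in 5. In the 85, its median was 0.14 log2 units above the other 3 water libraries, and IbHypSysIV and IbPep1 stood 0.93 and 1.01 above those 3. In the 136 it was 0.97 above them, beside 1.05 for IbHypSysIV and 1.29 for IbPep1. In the 5 it was 2.37 above them, against 1.38 and 1.23 with the peptides. The classes were set by where water replicate 3 lay, so its rise from class to class follows from the sorting. Over all genes tested, 1.06% had all 8 peptide libraries above all 4 water libraries, and 4.37% had them above water replicates 1, 2 and 4. The rule set that second condition for the members, so nothing is read from either share.

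The 3 members with the most counts belonged with those high in water replicate 3. They stood at 392 to 725, 448 to 692 and 462 to 691 CPM in water replicates 1, 2 and 4. In water replicate 3 they stood at 2663, 2541 and 1191 CPM. Their peptide libraries held 1172 to 2020, 887 to 1856 and 732 to 2510 CPM. In the first 2 of them water replicate 3 exceeded every peptide library.

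In 47 members water replicate 3 did not lie above the other 3 water libraries, and in 22 of these it was the lowest of the 4. Their median differences from water were 0.96 with both peptides. Water replicate 3 counts in the water mean, so picking members by its place bears on these differences, and nothing is read from their size. Of the 47, 25 were called higher with IbHypSysIV than with water (1.22% of all genes) and 38 with IbPep1 (5.51% of all genes), by the same edgeR test; the rule used these contrasts, so nothing is read from these counts. Between the peptides 3 were called, where 15.8% of all genes were. The pair itf00g25340 and itf05g02260 was among the 47 members and was not called between the peptides. In 13 of the 47, IbHypSysIV replicate 4 and IbPep1 replicate 3 were both the highest of their groups.

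With water replicate 3, IbHypSysIV replicate 4 and IbPep1 replicate 3 all left out, the 226 members still stood above water by a median of 0.87 log2 units with IbHypSysIV and 1.06 with IbPep1. At least 0.58 was reached in 215 members with IbHypSysIV, in 215 with IbPep1 and in 207 with both. The lowest members stood at 0.40 and 0.27. These values come from libraries the rule used and describe the members only.

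By counts not corrected for gene length, which the sources used here do not give, members were spread over the range of the leaf's genes with a shift to lower levels. Their mean water level ran from 0.531 to 1073 CPM with a median of 4.92, beside 12.9 for all genes tested. There were 52 members under 2 CPM, 95 from 2 to 10 CPM, 67 from 10 to 100 CPM and 12 at 100 CPM or more. Median differences from water were 0.91 and 1.02 (IbHypSysIV and IbPep1) in the lowest of these classes and 0.71 and 0.85 in the highest. A water library held under 10 counts in 16 members and under 3 counts in 1, while no peptide library held fewer than 16.

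Identifiers of members carried all 16 prefix numbers of the table. The prefix itf05 had 26 members, 1.67% of its tested genes, and itf06 had 6, 0.414% of its tested genes. These were the highest and the lowest share, and no test was made. In 8 of 210 pairs of consecutive members within a prefix, the identifiers were neighbours in sorted order, 16 members in all. In each of the 8 pairs the numbers differed by 10, and no test was made. One of these pairs held itf05g02260, whose neighbour stood at 1.70 log2 units above water with IbHypSysIV and 1.42 with IbPep1. Among 332 tested genes next to a member that were not members, the median differences from water were 0.09 with IbHypSysIV and 0.11 with IbPep1. Of these 332, 7 reached 0.58 with both. Of the 22289 genes with a water mean of at least 0.5 CPM, 449 did, which were the 226 members and 223 other genes. The 332 leave out members and carry no condition on the water level, so the sets are not alike and nothing is read from these counts. Whether neighbouring numbers mean neighbouring genes is not given in the sources used here.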

How the data were processed

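The authors deposited 1 table of raw counts, with a row per gene identifier and a column per library. The submitters' processing notes name HISAT2 2.0.5, HTSeq 0.6.1 and DESeq2 1.22.2 without their roles. Not given in the sources used here are the genome build, the annotation, the strand setting and the kit of each library (the labels' protocols name 2). Without strand, reads of overlapping genes cannot be told apart. Libraries were grouped by source name, and replicates were numbered in accession order. The members, lists and tests were chosen with earlier results of these data known.

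The rule was applied with pandas 2.3.3. Fits ran in R 4.3.3 with edgeR 4.0.16: filterByExpr kept 23193 genes, TMM factors were used, and 3 groups were fitted in 1 model, with a call at an adjusted p under 0.05. The SE of a log2 fold change is its size over the square root of F. The script was tested on simulated counts. Alternatives were other scalings, no filter, limma-voom (limma 3.58.1), DESeq2 1.42.0, other thresholds of the rule and leaving libraries out.

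Named members were, per peptide against water, the 2 with the largest difference and at least 1 CPM in water, and, between the peptides, the 2 largest each way among called members whose groups did not overlap.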

Additional observations from a re-analysis of the deposited data

Results flagged for a closer look

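In water replicate 3 the members took 1.2% of the counts, against 0.445% to 0.514% in the other 3 water libraries. The gap to the nearest of them was 0.908 of the whole range of the group, above Dixon's 95% limit for 4 values. The rule held the other 3 water libraries below every peptide library in each member and left replicate 3 free, so these values are not independent of how the members were chosen and the gap is a description only. This was 1 outlying library in 24 groups of 4 values searched (the members' share of counts, their median level and the CPM of 6 named members, in 3 groups each), and chance alone gives about 1 in 20. With water replicate 3 left out, the median member stood 1.01 log2 units above water with IbHypSysIV and 1.20 with IbPep1, in place of 0.81 and 0.98. It was the highest water library in 179 members, under a rule that left it free. A rise on leaving it out follows from that, so these values too are a description only.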

How the results depend on the processing

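The rule gave 49 members with a minimum difference of 1, 85 with the condition on single libraries extended to all 4 water libraries, 396 with the water mean taken over the other 3 libraries (217 of the 226 among them) and 357 without the 3 libraries that stand apart (202 of the 226). It gave 177 to 255 with TMM scaling, other pseudocounts or another minimum water level, and 188 to 467 when each library was left out in turn. The median differences from water moved by less than the spread between replicates in every alternative run, with 0.71 to 1.01 for IbHypSysIV and 0.85 to 1.20 for IbPep1 when each library was left out. The 7 members called between the peptides became 17 without the 3 libraries, 4 with limma-voom, 11 with DESeq2 (1 member had no adjusted p) and 2 to 13 with each library left out. Against water, the IbHypSysIV count of 49 became 115 without the 3 libraries, 127 with DESeq2 and 9 to 114 with each library left out, and the IbPep1 count of 133 became 202 without the 3 libraries and 41 to 202 with each left out. The fold change of itf00g25340 between the peptides ran from -0.0136 to 0.41 with each library left out and was 0.67 without the 3 libraries, and that of itf05g02260 was 0.11 to 0.54 and 0.71. The cause of these shifts was not tested. Alternatives for counts against water were added after the data were seen.

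Some numbers in the library titles recur between groups. The correlations of same-numbered libraries' deviations from their group means ran from -0.0763 to 0.14, so they were not taken as pairs. Water replicate 3, IbHypSysIV replicates 3 and 4 and IbPep1 replicate 4 have numbers found in no other library. With the title numbers as a block, these libraries add nothing to the differences between groups. IbHypSysIV then enters through replicates 1 and 2 only. With these numbers as a replicate block, edgeR's quasi-likelihood test called 3 members between the peptides (1 of the 7 among them, and 2.59% of all genes), 0 members and no other gene for IbHypSysIV against water (177 members at an unadjusted p under 0.05; limma-voom, run without the block, called 48) and 164 for IbPep1. Under the block itf07g14460 (log2 1.11, adjusted p = 0.107), itf05g06230 (-0.68, 0.243) and itf01g00680 (-0.53, 0.125) did not pass, and these are their highest adjusted p over the alternatives. In water, 16 members had under 10 counts in a library, which limits what differences could be detected.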
